A study of Rattus norvegicus with 6 samples.

Results

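The genes described here encode the microtubule motors: kinesin heavy and light chains, dynein chains and dynactin subunits. Members were all probe sets whose single gene symbol in the platform annotation starts with Kif, Klc, Dync, Dynl or Dctn, which gave 90 probe sets for 57 genes, of 31042 probe sets and 14217 genes with a single symbol in all. For a gene with several probe sets, the one with the highest mean of log2(intensity + 16) over the 6 arrays stood for it, a choice that does not use the difference between eyes. The RNA was that of cells captured as retinal ganglion cells, which send their axons through the optic nerve to the brain. The animals were 3 Brown Norway rats (adult males). Fluorogold placed at the superior colliculus had labelled the ganglion cells in both eyes by retrograde transport. A hypertonic saline injection into an episcleral vein had raised the pressure of 1 eye per rat for 10 days, and laser capture pooled 2000 cells of each eye for 1 array. The arrays fall into OS (left eyes, n = 3) and OD (right eyes, n = 3). Which of the eyes was the treated one is not in the labels. Every difference below is therefore OS minus OD within a rat, with no direction relative to pressure.

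Axonal transport runs on microtubules whose plus ends point away from the cell body. Most kinesins walk to the plus end and carry vesicles, mitochondria and cytoskeletal cargo outward, while cytoplasmic dynein, bound to its cofactor dynactin, walks to the minus end and carries endosomes, trophic signals and worn organelles back. A ganglion cell depends on both over the whole length of the optic nerve, and Fluorogold itself reaches these cell bodies by the retrograde route. Accordingly, 17 member genes formed the anterograde set (cargo kinesins, their light chains and Kifap3) and 15 the retrograde set (dynein-1 and dynactin). The other 25 were ciliary, mitotic, minus-end, depolymerizing or unclassified members.

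On these arrays 39 of the 57 genes passed the brightness filter (mean log2 level at or above the median of all probe sets), 68.4% against 60.4% of all genes. Of the anterograde set 15 of 17 passed, of the retrograde set 13 of 15, and of the mitotic kinesins 1 of 11 (Kif11). A background limit was set on each array from 27 probe sets against bacterial RNAs that were assumed, without a test, to be absent. It was the 95th percentile of their intensities and lay between 260.5 and 590.8. Above this limit on all 6 arrays were 8 anterograde, 6 retrograde and 0 mitotic genes, all by their brightest probe sets. The share was 33.3% over all 57 member genes and 15.7% over all genes. The OS arrays had 35, 33 and 38 member genes above the limit in rats 1 to 3, and the OD arrays 44, 31 and 41. Of all genes, 53.0, 40.8 and 54.1% lay above it in OS, and 65.6, 41.1 and 61.9% in OD. The limit itself was higher on the OS than on the OD array in rats 1 and 3.

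Ganglion cell markers were present, with Thy1 at 731.1 to 1213 in OS and 1412.1 to 1919.7 in OD, above the limit on all arrays. Of the 12 such markers on the array, 7 exceeded the limit on all 6 arrays. The summed intensity of these 12 ran from 16532 to 18768 in OS and 24508 to 37099 in OD, and 10 of the 11 tested had a lower mean in OS. Elavl4 was higher in OS in the mean (0.79). So was the untested Isl1 (1.3), above the limit on 2 arrays. For amacrine cell markers the sums were 12962 to 24844 in OS and 29172 to 72895 in OD (4 of 7 tested lower, with Tfap2a and Chat above the limit on no array), and for pigment epithelium markers 1998 to 4291 in OS and 5587 to 19808 in OD (5 of 5 lower). Sums overlapped between eyes for photoreceptor (13771 to 32254 in OS, 14599 to 48364 in OD), bipolar (14804 to 61306 in OS, 9066 to 30095 in OD), glial (6824 to 16887 in OS, 6534 to 19432 in OD) and microglial markers (2949 to 11606 in OS, 2652 to 4540 in OD). Lower means in OS were found in 5 of 11 tested photoreceptor, 0 of 5 bipolar, 3 of 6 glial and 2 of 5 microglial markers. Of the bipolar markers, 3 were higher in OS in 3 of 3 rats (background 13.1%), and Otx2 made up most of their sum. Beta-actin controls at the 3' end, set against those at the 5' end, gave a ratio that was higher in every OS eye than in its fellow OD eye, by 1.32 ± 0.52 on the log2 scale (SD, n = 3 rats). Gapdh controls gave -0.46 ± 1.86, with 0.29, 0.90 and -2.58 in rats 1, 2 and 3. The part of these shifts in the motor results was not tested. In cells pooled by capture, fewer cells of a type and less RNA per cell cannot be told apart. Markers listed for other cell types also exceeded the limit on all 6 arrays, among them Gad1 (amacrine), Rom1 (photoreceptor) and Otx2 (bipolar). The motor values therefore cannot be assigned to ganglion cells alone.

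No motor gene passed the test between eyes. By limma, 0 of the 39 tested genes had an adjusted p under 0.05, against 0.0129% of all tested probe sets (2 of 15521) and 0.0116% of tested genes (1 of 8594). At an unadjusted p under 0.05 there were 5 member genes lower in OS (background 5.2% of 8594 genes) and 1 higher (background 1.73%). Lower in OS in 3 of 3 rats were 10 member genes, 25.6% of those tested, against 15.6% of all genes. Higher in 3 of 3 rats were 3, against 13.1% of all genes. With a mean difference of at least 1 on the log2 scale added, the counts were 8 lower (background 8.6%) and 1 higher (background 6.57%). These shares describe 39 genes and carry no test of their own.

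**Figure D1:**
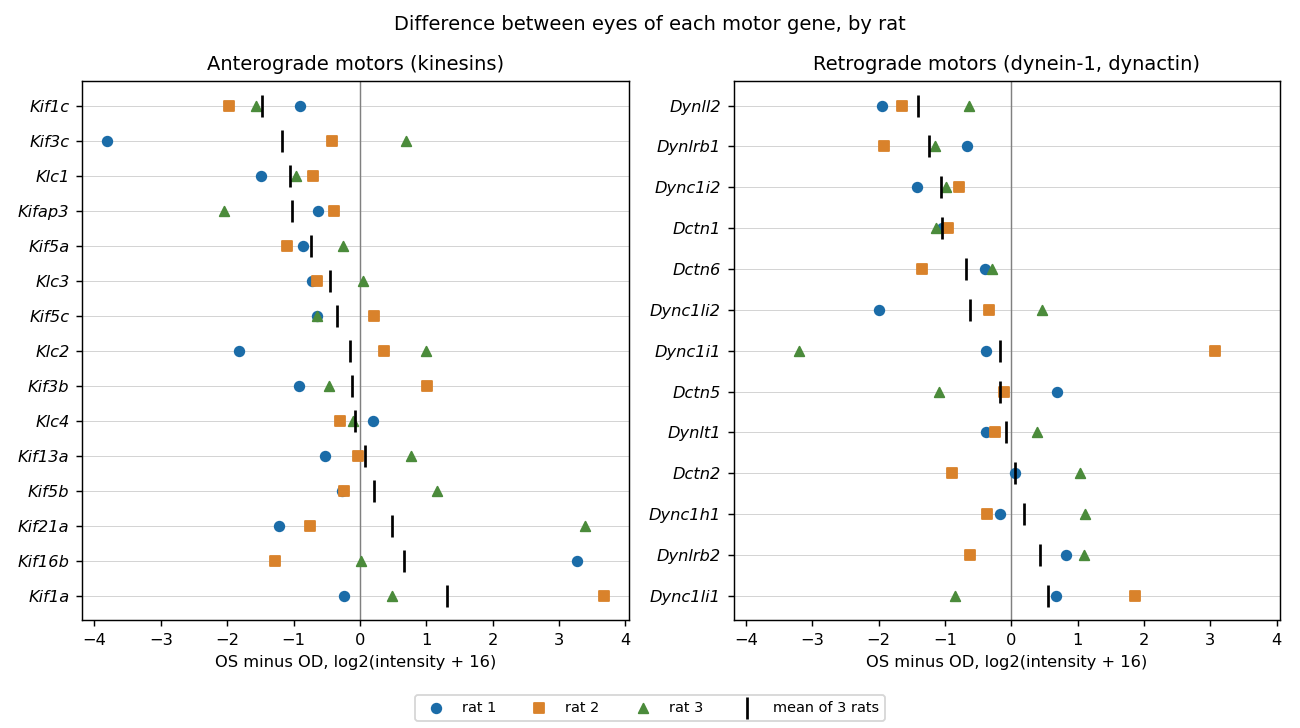
Each row is a motor gene that passed the brightness filter, and the horizontal axis is OS minus OD in log2(intensity + 16); symbols are the 3 rats and the black tick is their mean. Kif1c (-1.47), Klc1 (-1.05), Dynll2 (-1.41), Dynlrb1 (-1.24), Dync1i2 (-1.06) and Dctn1 (-1.04) lie left of 0 in every rat, while Kif1a, Kif21a, Kif16b and Dync1i1 spread over several log2 units.

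Anterograde and retrograde motors had medians 0.02 apart. The median difference over the 15 tested anterograde genes was -0.15 and over the 13 tested retrograde genes -0.17, beside -0.07 over all genes, all on the log2 scale. A lower mean in OS was found in 10 of 15 anterograde and 9 of 13 retrograde genes (66.7% and 69.2%, against 53.7% of all genes). Lower in 3 of 3 rats were 4 anterograde genes (Kif1c, Klc1, Kifap3, Kif5a) and 5 retrograde genes (Dynll2, Dynlrb1, Dync1i2, Dctn1, Dctn6), and higher in 3 of 3 rats were 0 of either.

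Rat by rat, the balance between the sets turned. Anterograde medians were -0.72, -0.39 and 0.02 in rats 1, 2 and 3, and retrograde medians -0.38, -0.62 and -0.63. Anterograde minus retrograde was therefore -0.35 in rat 1, 0.23 in rat 2 and 0.65 in rat 3, a mean of 0.18 ± 0.50 (SD, n = 3 rats). The spread between rats exceeded the difference between the sets, and no order of the sets held in every rat. The retrograde median was below 0 in each rat, and the anterograde median in rats 1 and 2. Each median moved with the rats included: without rat 1 it was -0.20 for anterograde and -0.07 for retrograde genes, without rat 2 -0.41 and -0.34, and without rat 3 -0.51 and -0.42, beside -0.02, -0.12 and -0.09 for all genes.

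**Figure D2:**
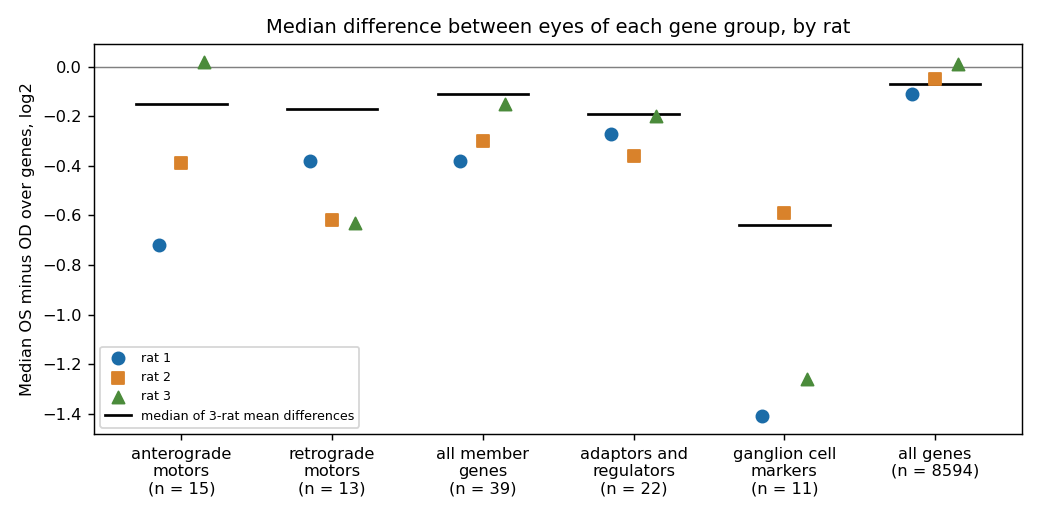
The vertical axis is the median over genes of OS minus OD in log2; symbols are the 3 rats, and the black line is the median of each gene's mean over rats. Retrograde medians (-0.38, -0.62, -0.63) lie below 0 in each rat, anterograde medians run from -0.72 to 0.02, and those of all 8594 genes stay within -0.11 to 0.01.

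Promoter sequence was set out for the motor genes that were lower in OS in every rat, since these differed in the same direction in all 3 animals. The 250 bases before the annotated start were read from RefSeq (GRCr8), where 47 of the 57 members had an entry by gene identifier, and are shown for the anterograde and the retrograde genes with the most negative mean difference that had an entry, 2 of each. Capitals mark every match on either strand to the GC box GGGCGG, the CRE TGACGTCA, the E-box CACGTG, the CCAAT box CCAAT and the TATA box TATAAA. All 4 lie on the plus strand, at chr10:55912843-55913092 for Kif1c, chr6:136644350-136644599 for Klc1, chr3:76441371-76441620 for Dync1i2 and chr4:117241473-117241722 for Dctn1.
Kif1c: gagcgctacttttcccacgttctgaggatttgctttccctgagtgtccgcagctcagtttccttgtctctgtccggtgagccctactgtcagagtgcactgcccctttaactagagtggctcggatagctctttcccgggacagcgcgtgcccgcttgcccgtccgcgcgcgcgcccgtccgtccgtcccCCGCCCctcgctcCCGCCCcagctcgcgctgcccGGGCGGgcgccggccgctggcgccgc
Klc1: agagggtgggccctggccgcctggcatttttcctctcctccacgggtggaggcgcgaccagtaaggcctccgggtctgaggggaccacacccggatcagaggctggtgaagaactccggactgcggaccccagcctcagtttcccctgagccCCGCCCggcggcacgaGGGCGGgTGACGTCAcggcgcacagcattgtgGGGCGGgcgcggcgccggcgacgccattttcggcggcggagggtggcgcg
Dync1i2: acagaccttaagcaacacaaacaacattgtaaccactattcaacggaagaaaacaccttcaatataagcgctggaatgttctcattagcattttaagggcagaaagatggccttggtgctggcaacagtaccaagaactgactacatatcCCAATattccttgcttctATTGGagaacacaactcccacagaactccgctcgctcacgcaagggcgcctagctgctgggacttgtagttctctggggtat
Dctn1: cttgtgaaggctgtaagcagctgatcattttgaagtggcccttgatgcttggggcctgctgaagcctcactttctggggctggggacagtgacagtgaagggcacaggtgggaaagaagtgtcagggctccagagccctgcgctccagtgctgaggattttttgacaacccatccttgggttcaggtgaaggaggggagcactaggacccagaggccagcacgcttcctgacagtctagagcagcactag
The kinesin promoters are rich in G and C (68.8% for Kif1c, 71.6% for Klc1), with 30 and 28 CpG pairs and 3 GC boxes each, and Klc1 also holds a CRE. The Dync1i2 window is 45.6% G and C with 6 CpG pairs and 2 CCAAT boxes, and the Dctn1 window has 2 CpG pairs and no match. These 4 thus share no motif among those marked. An NRF1 motif was also searched at first and was dropped after its counts were seen.

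Among all members with an entry, 59.6% held a GC box, against 59.4% of the 7110 tested genes with an entry. The share was 14 of 16 anterograde and 6 of 11 retrograde genes. A CRE was found in 3 of 47 members (6.38%, against 3.07%) and a CCAAT box in 20 (42.6%, against 35.4%). An E-box was found in 2 (4.26%, against 8.28%) and a TATA box in 5 (10.6%, against 6.75%). The median G and C content was 61.6% in members and 60.4% in tested genes. A match is a description of the letters in this window.

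Within the anterograde set, the kinesin-1 motor carries much of the axonal cargo and is built of Kif5 heavy chains and Klc light chains, which bind cargo. Kif5a (probe set 1375875_at), the neuronal heavy chain, had intensities of 953.7, 1014.9 and 999.5 in the OS eyes of rats 1, 2 and 3, against 1730.3, 2188.9 and 1203.3 in their OD eyes. All OS values lay below all OD values, which held for 5 of the 39 tested members in this direction (background 5.7%) and 0 in the other (background 4.79%). The difference was -0.74 ± 0.43 (SD, n = 3 rats; limma adjusted p = 0.809). A second Kif5a probe set was also lower in each rat (-1.32 ± 1.24), above the limit on 1 of 3 OS arrays, and the third lay at or below the limit on all arrays. The ubiquitous heavy chain Kif5b (0.22 ± 0.82) and the neuron-enriched Kif5c (-0.35 ± 0.50) went different ways in different rats.

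Klc1 (1370886_a_at), a light chain gene prominent in neurons, was the brightest member. It read 5069.1, 7549.6 and 10377.1 in the OS eyes of rats 1, 2 and 3, against 14303.8, 12349.7 and 20157.2 in OD. The groups did not overlap, and the difference was -1.05 ± 0.40 (limma adjusted p = 0.604). Its other probe sets did not follow: 1399126_at was higher in OS in 3 of 3 rats (0.59 ± 0.48), and 1388125_a_at, under the brightness filter and not tested, was higher in OS in 3 of 3 rats and at least 1.17-fold so against an OD signal at or below the limit. The last, 1375229_at, also under the brightness filter and not tested, was mixed (0.91 ± 2.90). Averaged over its 4 probe sets, Klc1 was at 0.67. Which Klc1 transcripts each probe set reads was not analysed here. The light chain genes Klc2 (-0.15 ± 1.48), Klc3 (-0.45 ± 0.42) and Klc4 (-0.07 ± 0.25) had means below 0, none with the same sign in every rat.

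Kinesin-2 is a heteromeric motor of Kif3 heavy chains with the adaptor Kifap3, used in axons and cilia. Kifap3 (1389556_at) read 2644.7, 1612.9 and 2465.2 in OS, against 4113, 2124.5 and 10178 in OD. The eyes overlapped because the OD value of rat 2 was below 2 of the OS values; the difference was -1.02 ± 0.89 (limma adjusted p = 0.678). Its other probe sets were at 0.69 ± 2.50 and -0.22 ± 1.40, so the lower OS signal was not shared by all 3, and their mean was at -0.18. Without rat 3, the brightest probe set was at -0.51. Kif3b (-0.12 ± 1.01) and the neuron-enriched Kif3c (-1.18 ± 2.35) were mixed, and most of the Kif3c mean came from rat 1, at -3.81; without rat 1 it was 0.14. Kif3a was under the brightness filter and not tested, above the limit on 1 of the 6 arrays.

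Kinesin-3 motors carry synaptic vesicle precursors, dense-core vesicles and endosomes. Kif1c (1370930_at), which moves dense-core vesicles and Golgi-derived membranes, had the most negative mean difference of the tested members. It read 1001.5, 596.8 and 787.7 in OS, against 1880.5, 2377.8 and 2347 in OD. The groups did not overlap, every value exceeded its array's limit, and the difference was -1.47 ± 0.54 (limma adjusted p = 0.552). Kif1a (1384133_at), the motor for synaptic vesicle precursors, went the other way in the mean but read 2090.3, 2926.6 and 2311.2 in OS, against 2465.6, 214.3 and 1655 in OD. Its difference of 1.31 ± 2.08 (limma adjusted p = 0.717) rested on the single low OD value of rat 2, below that array's limit; without rat 2 it was 0.12. A second Kif1a probe set (0.41 ± 2.09) was higher in OS in rat 2 alone, by 2.81. Kif13a, a carrier of Golgi-to-membrane cargo and bright on all arrays, was at 0.07 ± 0.65, and the endosome motor Kif16b at 0.67 ± 2.34. Kif1b was under the brightness filter and not tested. The kinesin-4 family member Kif21a, which slows microtubule growth, was at 0.48 ± 2.55, with a range from -1.22 in rat 1 to 3.40 in rat 3.

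In the retrograde set, the motor subunit itself showed no shift in a common direction. Dync1h1 (1398803_at), the heavy chain that binds microtubules and hydrolyses ATP, read 644.1, 607.3 and 1184.7 in OS, against 726.2, 782.1 and 541 in OD. It was a little lower in OS in rats 1 and 2 and higher in rat 3, and the difference was 0.19 ± 0.80 (limma adjusted p = 0.964). Among the chains that tie the heavy chain to cargo and dynactin, Dync1i2 (1386952_a_at), the intermediate chain found in all cells, read 858.8, 654.9 and 1269.4 in OS, against 2322.3, 1147.6 and 2514.5 in OD. Rats 1 and 3 gave the higher OD values and the eyes overlapped slightly; the difference was -1.06 ± 0.32 (limma adjusted p = 0.730). The neuronal intermediate chain Dync1i1 was mixed at -0.17 ± 3.14, at 3.07 in rat 2 and -3.20 in rat 3. The light intermediate chains Dync1li1 (0.56 ± 1.36) and Dync1li2 (-0.62 ± 1.25) were mixed too.

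Light chains held the smallest p of any member. Dynll2 (1372612_at) encodes a small dimeric chain shared by dynein, myosin V and other complexes. It read 1717.2, 1868.6 and 5954.7 in OS, against 6703, 5917 and 9202.3 in OD. Rat 3 was high in both eyes, so that its OS value lay among the OD values. The difference was -1.41 ± 0.70, 2.66-fold lower in OS, with an unadjusted p of 0.00316 and a limma adjusted p of 0.394. Its second probe set was lower in OS in 3 of 3 rats as well (-2.26 ± 1.70, adjusted p = 0.727), above the limit on 1 of 3 OS arrays.

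Dynlrb1 (1370179_at), the roadblock-type light chain, read 1306.2, 494.1 and 1520.1 in OS, against 2086.4, 1900.1 and 3398.3 in OD, with no overlap; the OS value of rat 2 lay below that array's limit. The difference was -1.24 ± 0.63 (limma adjusted p = 0.633). Its paralog Dynlrb2, dim on most arrays, was at 0.44 ± 0.92, and the Tctex-type chain Dynlt1 at -0.08 ± 0.41. Dynlt3, another Tctex-type chain, was under the brightness filter. It read 254.8, 70.5 and 18.6 in OS, all at or below the limit, against 918.7, 345.4 and 655.5 in OD; OD was at least 1.32-fold higher, computed against the limit.

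Dynactin links dynein to cargo and lets it walk long distances. Dctn1 (1367848_at), the large subunit that grips microtubules and dynein, read 476.6, 57.5 and 1306.3 in OS, against 999.8, 126.6 and 2880.7 in OD. Levels differed far more between rats than between eyes, and both eyes of rat 2 were below their limits, yet the within-rat differences of -1.04, -0.96 and -1.13 had the smallest spread among the 10 genes lower in every rat (-1.04 ± 0.09). The adjusted p from limma, which pools variance over probe sets of like brightness, was 0.811. Dctn6, a subunit of the pointed end, was lower in each rat (-0.68 ± 0.58), and at -0.34 without rat 2. Its second, dimmer probe set was at 0.76 ± 1.61, and the mean of both at 0.04. Dctn2, the dynamitin subunit, was at 0.06 ± 0.96 and Dctn5, also of the pointed end, at -0.17 ± 0.89. Dctn4 was under the brightness filter and not tested, above the limit on 1 of 6 arrays.

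**Figure D3:**
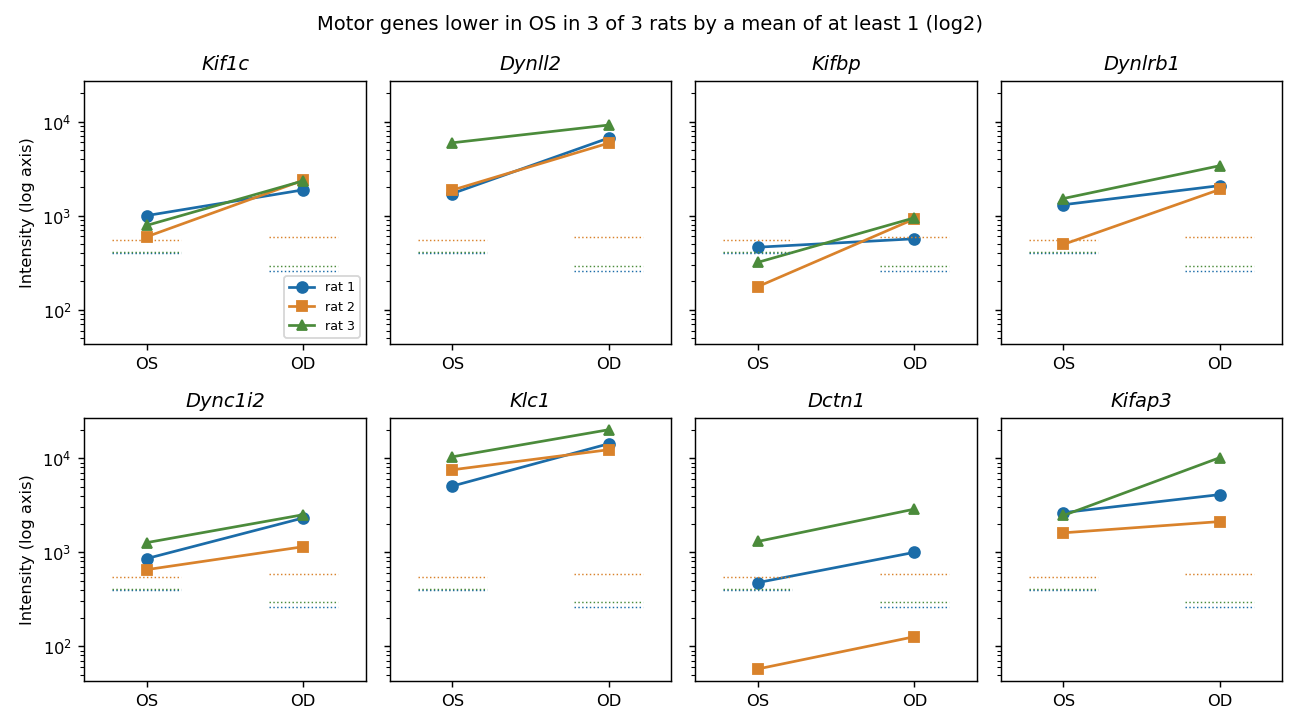
Intensity on a log axis in OS and OD for the 8 tested motor genes that were lower in OS in 3 of 3 rats by a mean of at least 1 on the log2 scale; lines join the eyes of a rat, and dotted bars mark the background limit of each array in the colour of its rat. Groups do not overlap for Kif1c, Kifbp, Dynlrb1 and Klc1, and Dctn1 lies below the limit in both eyes of rat 2.

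Outside the cargo motors, Kifbp, whose product binds several kinesins and keeps them off microtubules, was lower in each rat. It read 461.6, 175.8 and 318.7 in OS, against 567, 922 and 948 in OD (-1.37 ± 1.01, limma adjusted p = 0.781), without overlap but above the limit on 1 of 3 OS arrays. Dync2h1, the heavy chain of the ciliary dynein, was the only tested member higher in OS in 3 of 3 rats by a mean of at least 1. It read 617.9, 702.3 and 294.8 in OS, against 443.7, 94.7 and 243.4 in OD (1.14 ± 1.35, limma adjusted p = 0.845). Most of that mean came from rat 2, where the OD value lay below the limit. Without rat 2 the difference was 0.36, and both eyes of rat 3 lay below their limits. The microtubule depolymerase Kif2a (0.53 ± 0.38) was higher in OS in each rat by less than 1. Its other probe sets were at 0.21 ± 0.55 and -1.32 ± 2.23, neither with the same sign in every rat. The hedgehog pathway kinesin Kif7 was higher in OS by 0.08, 0.02 and 1.79 in rats 1, 2 and 3 (0.63 ± 1.01); both eyes of rat 3 lay below their limits, at 104.4 in OS and 18.7 in OD, and without rat 3 the difference was 0.05. The spindle kinesin Kif11 was at 0.28 ± 0.49. The minus-end kinesins Kifc2 (0.07 ± 0.45) and Kifc3 (-0.06 ± 0.10) differed little between eyes. The remaining ciliary dynein genes Dync2i1, Dync2i2 and Dync2li1 lay within -0.11 to 0.08.

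A further 18 members lay under the brightness filter and were not tested. The brightest probe sets of 5 of them (Dynlt5, Kif14, Kif18b, Kif20a and Kif23) were at or below the limit on all 6 arrays; the other Kif23 probe set exceeded it on 1 array, OS of rat 1, at 825.9. Besides Dynlt3, 4 of the 18 were lower in OS in 3 of 3 rats by a mean of at least 1, and all 4 had every OS array at or below the limit. The ciliary light chain Dynlt2b read 184, 68.7 and 154.4 in OS, against 766.1, 88.6 and 408 in OD, and the ciliary kinesin Kif6 184.9, 380.8 and 36.3 in OS, against 275.1, 769.7 and 246.4 in OD. The spindle kinesin Kif18a read 51.6, 251 and 156 in OS, against 197.1, 500.9 and 348.2 in OD, and the midzone kinesin Kif20b 28.5, 30.8 and 79.3 in OS, against 32.6, 463.2 and 661.9 in OD. Higher in OS in 3 of 3 rats by that margin were Kif12 and the mitotic Kifc1, with every OD array at or below the limit. Kif12 read 515.8, 120.3 and 29.9 in OS, against 122.6, 52.8 and 22.9 in OD, and Kifc1 350.3, 33.8 and 529.9 in OS, against 191.5, 32.6 and 28.6 in OD. Measured against the limit, no fold above 1 could be given for these 6. Among the 8594 tested genes, 8.6% were lower and 6.57% higher in 3 of 3 rats by that margin. No such share was computed for genes under the filter, so these counts are a description only.

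Probe sets of the same gene gave a check within the arrays. Of 9 member genes with more than 1 tested probe set, 5 had means of the same sign on all of them: Dynll2, Kif1a, Kif5a, Kif5b and Kif5c. Klc1, Kifap3, Kif2a and Kif26b did not. Kif26b, a kinesin without motor activity, had means of -0.26, 1.48 and -0.90, with SDs over rats from 2.43 to 3.87.

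**Figure D4:**
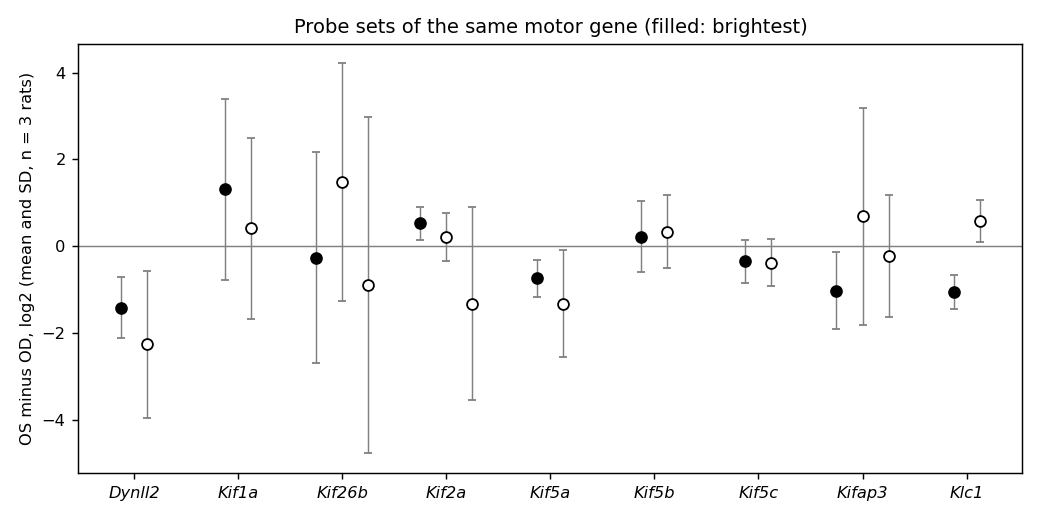
Points are the mean OS minus OD in log2 of each tested probe set, bars the SD over 3 rats, and filled points the brightest probe set of the gene, for the 9 motor genes with more than 1 tested probe set. Both Dynll2 probe sets (-1.41 and -2.26) and both Kif5a probe sets (-0.74 and -1.32) lie below 0, while those of Klc1 (-1.05 and 0.59) lie on either side.

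The members were also set out by brightness beside all tested genes, in classes of 7 to 11 members that were chosen after the values were seen and carry no test. Above the 90th percentile of brightness among tested genes 5 of 7 members had a lower mean in OS and 3 were lower in each rat, beside 67.6% and 27.1% of the 860 genes there. Between the 75th and 90th percentile these counts were 9 and 5 of 11, beside 58.7% and 21.6% of 1289 genes. From the 50th to the 75th percentile they were 6 and 0 of 11 (51.7% and 14.7% of genes), and below that 4 and 2 of 10 (50.4% and 12.1%). Member medians in these classes, from bright to dim, were -0.62, -0.45, -0.06 and 0.36, beside -0.26, -0.13, -0.04 and -0.01 for all genes.

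**Figure D5:**
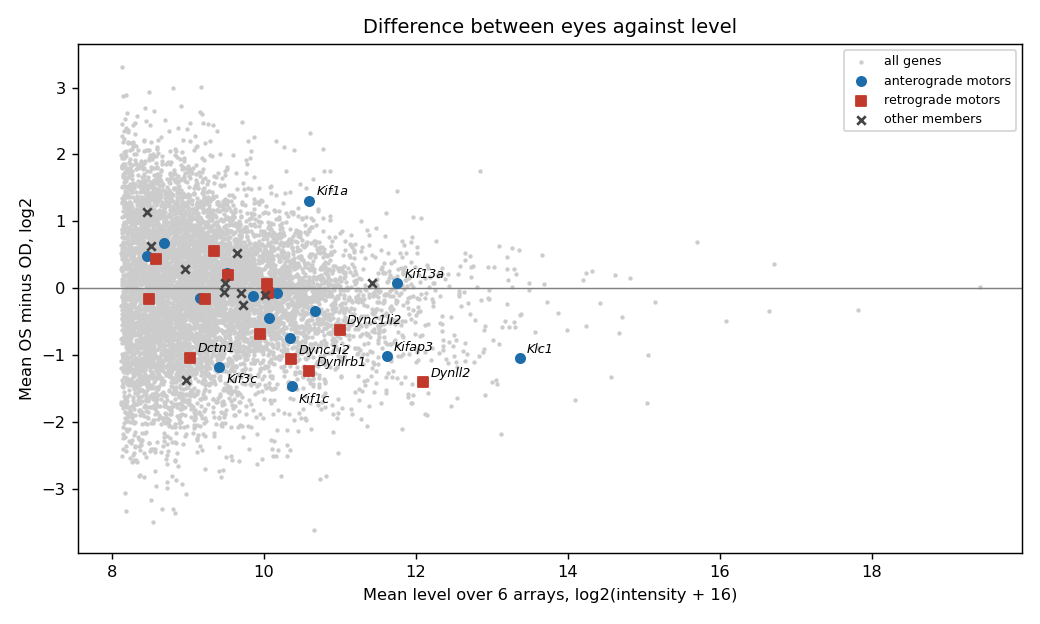
The horizontal axis is the mean log2(intensity + 16) over 6 arrays and the vertical axis the mean OS minus OD in log2; grey points are all 8594 tested genes, and coloured points the motor genes. Above a level of about 10 most motor genes lie below 0, with Klc1 at -1.05 and Dynll2 at -1.41 among the brightest, and Kif1a at 1.31 lies farthest above 0.

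Differences between eyes were hardly shared between rats among the motor genes. Across the 39 tested members, Pearson's r of the within-rat differences was 0.10 between rats 1 and 2, then 0.0261 with rat 3 set against rat 1 and -0.123 with rat 3 set against rat 2, beside 0.0523, 0.0909 and 0.0119 across all 8594 genes. These are descriptions across genes, which are not independent replicates, and each point of a rat comes from the same pair of arrays.

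Cargo adaptors, motor regulators and the dynactin subunits named outside the Dctn symbols formed a separate list of 30 genes, with 27 on the array. The dynactin subunits on it were Actr1a (0.30 ± 0.69), Actr1b (0.20 ± 0.38), Actr10 (-1.0 ± 1.08), Capza1 (-1.26 ± 1.88), Capza2 (-0.39 ± 0.43) and Capzb (0.39 ± 0.48), actin-related and capping proteins of its filament; Actr10 had the same sign in every rat. Of the 22 tested, 0 passed by limma and 2 had an unadjusted p under 0.05, both lower in OS (background 5.2%). A lower mean in OS was found in 14 (63.6%, background 53.7%), and 7 were lower in 3 of 3 rats (31.8%, background 15.6%), with 0 higher in 3 of 3. The list median was -0.19, with -0.27, -0.36 and -0.20 in rats 1 to 3. Madd, an adaptor that couples kinesin-3 motors to vesicles, read 2240.6, 3788.7 and 12570.5 in OS, against 7964.8, 7489 and 17934.3 in OD, lower in each rat by -1.10 ± 0.66 (limma adjusted p = 0.590). With its 2 probe sets averaged, Madd was at -0.58. The dynein adaptor Bicd2 was at -1.65 ± 0.87, the dynein regulator Nudc at -1.67 ± 0.63 and the kinesin-1 adaptor Fez1 at -1.10 ± 0.79, lower in each rat, with adjusted p of 0.659, 0.744 and 0.781 by limma. Bicd2 and Nudc each exceeded the limit on 1 of 3 OS arrays.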

How the data were processed

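Per the labels' protocols, amplified RNA of each eye (RiboAmp HS) was hybridised to a GeneChip with 1 colour. The submitters' processing notes name GCOS, without settings. The deposited intensity values are linear and have no detection calls. The 2% trimmed mean was 500.1 on every array, so the authors' values were taken as already scaled and were not normalized again. No read depth exists; 3 rats limit the precision. Of 31042 non-control probe sets, 20826 had 1 gene symbol, 436 several and 9780 none. A further 6 probe sets that list a motor gene among several symbols were left out. All 57 member symbols matched the reference gene table by gene identifier.

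The log2 of intensity + 16 was taken, which understates fold changes of dim probe sets. The 15521 probe sets at or above the median mean level were fitted with limma 3.58.1 in R 4.3.3 (rat as a fixed block, intensity trend, two-sided, Benjamini-Hochberg over all of them), with 2 residual and 19.38 prior degrees of freedom. The fit was run on simulated data with normal noise of the fit's own variances, which cannot show how well it suits these arrays. The rats pair the eyes because both come from 1 animal; deviations from the eye means correlated at 0.109, 0.122 and 0.326 between the eyes of rats 1, 2 and 3 (r over probe sets). Medians over genes are descriptions, without a test. A fold against an eye with all arrays at or below the background limit is computed against that limit.

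Members, lists and tests were chosen with earlier results of these data known. Named with values were all tested anterograde and retrograde genes, the 5 other tested members and the 4 adaptors with the smallest p, and members with the same direction in 3 of 3 rats and a mean of at least 1; other members named were chosen after their values were seen. Alternatives changed the offset, normalization, filter, block, trend, prior, choice of probe set, gene lists and rats. Sequences were handled in Python 3.11.15.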

Additional observations from a re-analysis of the deposited data

How the results depend on the processing

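The count of 0 motor genes past the threshold by limma held under all 12 alternatives, with 0 to 7 at an unadjusted p under 0.05: 5 and 6 with an offset of 1 and 64, 6 with quantile normalization, 7 unfiltered, 5 from the 75th percentile of brightness up, 2 without the replicate block, 0 without the intensity trend, 7 with a robust prior, 4 with the mean of a gene's probe sets, and from 5 to 6 over the fits that dropped a rat. The count of 2 among all probe sets came to 0 at offset 1, under quantile normalization, from the 75th percentile up, without the replicate block and without the trend. It was 1 under a robust prior, 9 at offset 64, 9 unfiltered, and from 18 to 59 over the fits that dropped a rat. The anterograde median of -0.15 ran from -0.51 to -0.20 with 1 rat left out. Without Kif13a, Kif16b and Kif21a it was -0.40. The retrograde median of -0.17 ran from -0.42 to -0.07 with 1 rat left out. From the 75th percentile up the retrograde median was -0.39 and the anterograde -0.35, beside -0.11 for all genes. Their difference of 0.02 ran from -0.14 to -0.06 with 1 rat left out. It was -0.23 without Kif13a, Kif16b and Kif21a. Placing genes at their background bound, added after the data were seen, moved none of these 3. No tested gene of either set had all arrays of an eye at or below the limit. Medians over tested genes therefore could not move under this alternative. Of 37 named genes, 18 kept their direction under every alternative that tested them, among them Kif1c, Dynll2, Dynlrb1, Dync1i2, Kif5a, Dctn1 (tested in 11) and Kifap3, which was at -0.18 with the mean of its probe sets. Filter, block, trend and prior leave a gene's mean difference unchanged. A gene lower in every rat, as these were, also cannot turn with 1 rat left out. Only the offset, the normalization and, for genes with several probe sets, their mean could have turned these signs. Signs turned after quantile normalization for Klc4 (0.01) and Dctn2 (-0.01), and with the mean of probe sets for Klc1 (0.67), Dctn6 (0.04), Kif2a (-0.19) and Kif11 (-0.06). With 1 rat left out, values ran from -0.63 to 1.65 for Kif16b, -0.69 to 0.28 for Kif3b, -2.12 to 0.14 for Kif3c, -0.72 to 0.69 for Klc2, -1.16 to 0.07 for Dync1li2, -0.31 to 0.07 for Dynlt1, -0.20 to 0.05 for Klc4, -0.09 to 1.26 for Dync1li1, -0.27 to 0.37 for Kif13a, -0.99 to 1.33 for Kif21a, -0.25 to 0.46 for Kif5b, -0.42 to 0.54 for Dctn2, -0.60 to 0.29 for Dctn5, -0.26 to 0.47 for Dync1h1 and -1.79 to 1.35 for Dync1i1. The cause of these changes was not tested. The brightness filter left 18 members untested, and without it 0 of 57 passed.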
